A study of Oryctolagus cuniculus with 3 samples.

Results

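A group of 74 coding sequences had less RNA in the skin of a chinchilla-coloured Rex rabbit than in the skin of both its black and its white sibling. They were chosen by their measured RPKM, with a fixed rule, from 15558 coding sequences with reads in any of the 3 libraries, of which 11637 reached 1 RPKM in black as well as white skin and so could enter. RPKM is the number of reads scaled to coding length and to the number of reads in the library that were assigned to coding sequences. The rule asked for log2(RPKM + 1) in chinchilla skin to be at least 1 lower than in black and at least 1 lower than in white skin, which is 2-fold on that scale. The low level in chinchilla skin is therefore how the group was made, not a finding, and is given as a description with no test.

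Each library came from back skin of 1 animal aged 42 days, a full sibling of the others from the same litter, raised under the same conditions and anaesthetised with sodium pentobarbital before a piece of skin was cut. The groups were black fur, white fur and chinchilla fur, with 1 animal and 1 library per colour. The labels give no coat colour genotype, and a single animal stands for each colour, so that colour cannot be told apart from any other difference between the 3 siblings. The black library held 16.2 M assigned reads (M for mega), the white one 14.8 M and the chinchilla one 15.0 M.

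Rex rabbits are a domestic breed with short plush fur. At 42 days the first moult takes place, in which old hairs are shed and hair follicles grow new ones. Back skin therefore holds follicles that build a hair shaft from structural proteins, pigment cells that pass melanin into it, epidermis, dermis, fat, muscle, vessels and immune cells. Chinchilla fur is banded grey, and in rabbits the colour is known to come from an allele of the tyrosinase gene, whose enzyme starts melanin synthesis. The deposited lists name coding sequences by Ensembl protein identifier alone, and such identifiers occur in 0 of 38822 entries of the RefSeq table that was at hand. No member could be given a gene name or a function, and markers of pigment cells, hair shaft, muscle and other cell types could not be looked up. Of the identifiers, 2 are printed below and the other members are described by coding length, which belongs to a single member except that 3 members share a length of 396 bases and 2 share 1473 bases.

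The 74 were 0.636% of the 11637 coding sequences that could enter. Chinchilla was lower than black skin in 903 of the 12516 that reached 1 RPKM in either library, which is 7.21%, and lower than white skin in 130 of 12310, which is 1.06%. The 74 make up 8.19% of the first list and 56.9% of the second. Both comparisons share the chinchilla library. Both shares follow from the rule and from this library, and nothing is read from them.

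**Figure D1:**
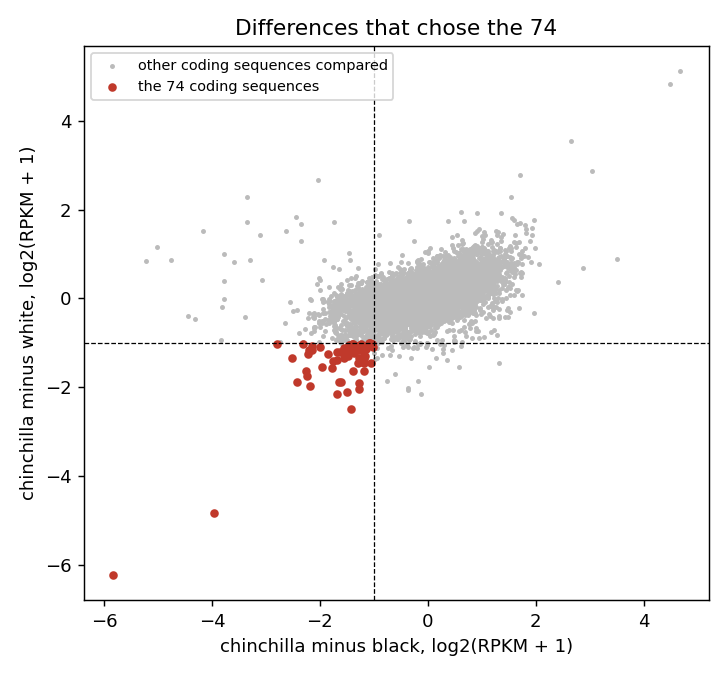
Each point is a coding sequence with at least 1 RPKM in black and white skin. The horizontal axis gives chinchilla minus black and the vertical axis chinchilla minus white, both as differences of log2(RPKM + 1). The 74 members are red, and the dashed lines mark the differences of -1 that chose them. Most members lie close to the corner of the dashed lines, and 2 lie far below it.

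The members were spread over 3 orders of magnitude of abundance. In black skin they ran from 1.63 to 4418 RPKM with a median of 87.5 RPKM, and in white skin from 1.66 to 4179.8 RPKM with a median of 88.2. In chinchilla skin they ran from 0 to 1929.6 RPKM with a median of 29.6. Over the 11637 the medians were 21.7 RPKM in chinchilla against 22.6 in black and 20.7 in white skin. The members' medians lay well above these in the siblings, where the rule asks for levels above chinchilla, and nearer in the chinchilla animal. Their upper quartile in chinchilla skin was still 208.4 RPKM, against 52.1 over the 11637. The median log2 difference of the members was -1.41 for chinchilla minus black and -1.19 for chinchilla minus white, which the rule fixes to be below -1. The same medians over the 11637 were both 0.04. In RNA of whole skin, fewer cells of a type and less RNA per cell cannot be told apart.

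**Figure D2:**
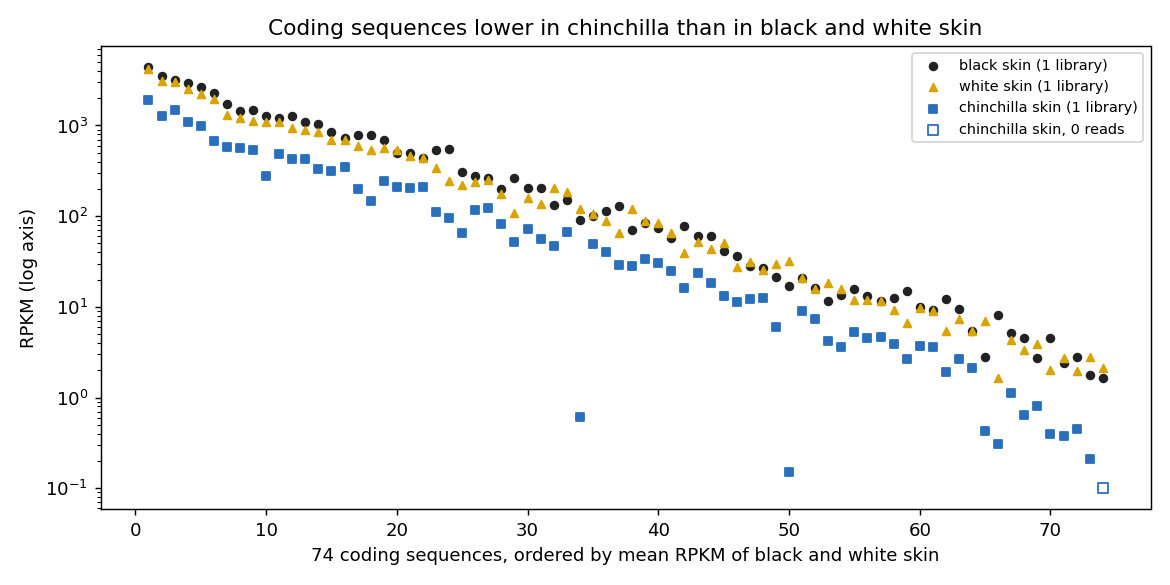
The 74 members from left to right by their mean RPKM in black and white skin. The vertical axis is RPKM on a log axis, and each symbol is the value in 1 library. The open square, drawn at 0.1, stands for the member without a read in chinchilla skin. By the rule, chinchilla values lie below both others throughout. The distance varies between members, more so at the low end on the right, and is widest among members with reads for 2 of intermediate abundance.

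Together the members took 2.81% of the assigned reads in black skin (exact 95% binomial interval 2.80 to 2.82%), 2.30% in white (2.29 to 2.31%) and 0.932% in chinchilla skin (0.927 to 0.937%). These intervals cover counting error only and say nothing of the spread between animals. The labels name no molecular identifiers, so copies of 1 molecule may count separately, which would make the intervals too narrow. Of the 100 coding sequences with the highest RPKM in a library, 12 were members in black skin, 7 in white skin and 3 in chinchilla. The highest-ranked member stood 8th in black, 18th in white and 71st in chinchilla skin. In RPKM the members' part of the total was 4.86% in black skin, 3.70% in white skin and 1.55% in chinchilla.

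The most abundant member was a coding sequence of 264 bases, with 1929.6 RPKM in chinchilla skin against 4418 RPKM in black and 4179.8 RPKM in white. The 297-base member had 1264 RPKM in chinchilla against 3542 in black and 3096 in white skin. The 186-base member, the shortest of all 74, had 1481, 3165 and 3034 RPKM in the same order. These short members had black and white levels near each other. Their folds of black over chinchilla were 2.29, 2.80 and 2.14 for the 264-, 297- and 186-base members. The 495-base member had 1103 RPKM in chinchilla against 2907 in black and 2509 in white skin. The 504-base member was almost a match for it in length and level, with 988, 2658 and 2210.3 RPKM in that order. A longer one, of 1491 bases, had 667 RPKM in chinchilla against 2298 in black and 1982 in white skin, a deeper step than in the short ones. In the same order, the 309-base member had 581, 1710.3 and 1317 RPKM, and the 189-base member had 561, 1433 and 1212 RPKM. In each of these 8, black was the highest library and chinchilla the lowest.

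Read numbers behind these values were high, so counting error was small. The 264-base member had 7641 reads in chinchilla, 18942 in black and 16362 in white skin, which makes it 2.29-fold higher in black than in chinchilla (exact 95% interval 2.23 to 2.35) and 2.17-fold higher in white (2.11 to 2.23). The 1491-base member had, in that order, 14926, 55635 and 43811 reads and was 3.44-fold higher in black (3.38 to 3.51) and 2.97-fold higher in white (2.91 to 3.03). Among the 12 members with a mean of at least 1000 RPKM in black and white skin, the fold of white over chinchilla ran from 2.05 to 3.92 with a median of 2.24. The fold of black over chinchilla ran from 2.14 to 4.56 with a median of 2.71. The rule cuts these folds off at about 2. Above that they were not equal within counting error, since intervals such as 2.11 to 2.23 and 2.91 to 3.03 lie apart. Below 100 RPKM, 14 of 38 members were over 3-fold lower in chinchilla than in both siblings, against 5 of the 36 above 100 RPKM. The rule itself sets part of this contrast, because with the pseudocount it asks for larger folds at low RPKM. The 10 members with a mean below 5 RPKM all had folds of at least 3.39 for black and 3.93 for white over chinchilla.

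The share of coding sequences that were members was highest among those abundant in black and white skin. Abundance here is the mean of both siblings, which the rule asks to lie above chinchilla. How far the rule sets these shares was not tested. The pseudocount of 1 by itself holds back low ones, yet the share was lowest from 20 to 100 RPKM. A mean of at least 1000 RPKM was found in 119 of the 11637, and 12 of these, 10.1%, were members. Between 100 and 1000 RPKM, 24 of 1234 were members (1.94%). From 20 to 100 RPKM it was 15 of 4794 (0.313%), from 5 to 20 RPKM 13 of 3784 (0.344%), and below 5 RPKM 10 of 1706 (0.586%). Most members, however, were not among the most abundant, and 38 of the 74 had a mean below 100 RPKM.

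The members were also shorter than most coding sequences. Their median coding length was 811.5 bases (186 to 3477), against 1317 bases over the 11637. Lengths of up to 600 bases made up 31 of the 74 members (41.9%), against 14.9% of the 11637. Lengths over 2000 bases made up 5 members (6.76%), against 27.5%. Shortness was not particular to the members. Up to 600 bases made up 33.7% of the 101 coding sequences 2-fold higher in chinchilla than in both siblings. It was 41.7% of the 103 that were lower in black than in both others, and 38.1% of the 42 lower in white. Short and abundant go together in these libraries in general: of the 119 coding sequences with at least 1000 RPKM, 64 had up to 600 bases. The 12 most abundant members fell into separate length ranges, 8 between 186 and 504 bases and 4 between 1461 and 1515 bases, with none in between.

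In that longer range the lower level in chinchilla skin was not limited to the members. There were 22 coding sequences of 1000 to 1600 bases that averaged 1000 RPKM or more, and chinchilla was the lowest library in 14 of them. Their median log2 difference was -0.36 for chinchilla minus black and -0.55 for chinchilla minus white. Over all 119 coding sequences of that abundance, the medians were 0.49 and 0.09, and chinchilla was the lowest library in 33. The 4 long members are among the 14, so the values of the 22 include theirs, and with 1 animal per colour they have no replicate check.

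**Figure D3:**
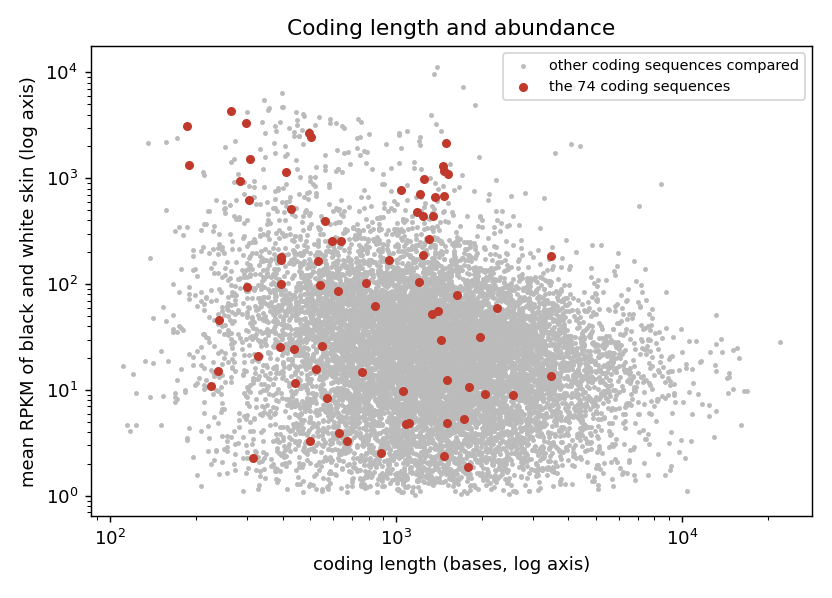
Coding length in bases against the mean RPKM of black and white skin, both on log axes, for all compared coding sequences (grey) and the 74 members (red). The upper red points form a group of up to 504 bases and a narrow band of about 1000 to 1515 bases.

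Coding length bears on the comparison with black skin, because the black library differed from both others by length. A smooth curve of the difference against length put chinchilla minus black at 0.35 (log2) for 300 bases and at -0.32 for 3500 bases, while chinchilla minus white was -0.00 and 0.05 at these lengths. Short members thus lay below black skin although short coding sequences in general lay above it. With the curve subtracted, 73 of the 74 still met the rule and 18 others joined, giving 91. The one that dropped out had 1725 bases, with 2.13 RPKM in chinchilla against 5.35 in black and 5.36 in white skin.

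Chinchilla skin was nearly without reads in 2 members of intermediate abundance. ENSOCUP00000017707, of 1203 bases, had 11 reads in the chinchilla library (0.610 RPKM), 1782 in the black (91.2 RPKM) and 2133 in the white one (119.6 RPKM). It was 149.6-fold higher in black than in chinchilla (83.4 to 300.3) and 196-fold higher in white (109 to 394). ENSOCUP00000011468, of 438 bases, had 1 read in the chinchilla library (0.152 RPKM), 120 in the black (16.9 RPKM) and 206 in the white one (31.7 RPKM). With that single read its ratios are loosely bounded, at 111 for black over chinchilla (19.5 to 4413) and 208 for white over chinchilla (37.0 to 8270.1). Both had more RPKM in white than in black skin, in contrast to the most abundant members. They were the 2 members at least 4-fold below both others on the log2(RPKM + 1) scale, which are 0.0172% of the 11637.

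On the log2(RPKM + 1) scale, the members with the next largest steps had 1470, 1371, 1305, 393, 759 and 1344 bases, with 1.97, 1.88, 1.74, 1.69, 1.65 and 1.63 for the smaller of their log2 steps. The 1470-base member had 6165 reads in the chinchilla library (279.6 RPKM), 30429 in the black (1275 RPKM) and 23863 in the white one (1095 RPKM), and was 4.56-fold higher in black (4.44 to 4.69) and 3.92-fold higher in white (3.81 to 4.03). The 1371-base member had 145 RPKM in chinchilla against 781 in black and 539.5 in white skin. Here black stood further above chinchilla, at 5.37-fold (5.17 to 5.58), than white did, at 3.71-fold (3.56 to 3.86). In the same order, the 1305-base member had 65.1, 310.2 and 219.8 RPKM, and the 1344-base member 109.9, 531 and 343 RPKM. In these 4, white lay between black and chinchilla. In the shorter ones white was above black. The 393-base member had 5.94 RPKM in chinchilla against 21.3 in black and 29.9 in white skin, and the 759-base member had 3.60, 13.5 and 15.9 RPKM in that order.

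At the other end of the read range, 9 members had fewer than 10 reads in chinchilla skin. A member of 1779 bases had 47 reads (1.63 RPKM) in black, 56 reads (2.12 RPKM) in white and none in chinchilla skin; it is singled out here after its values were seen. With 3 reads taken as the number that a count of 0 still allows, its folds over chinchilla would be 14.5 for black and 18.9 for white. The exact 95% intervals used for the other members, which also hold the counting error of the siblings' reads, begin lower, at 11.3-fold for black and 14.9-fold for white. The 315-base member had 1 read in chinchilla, 9 in black and 13 in white skin, and its fold of black over chinchilla, 8.31, had an interval from 1.15 to 364. For such members the size of the step was only loosely bounded at this depth. The counting interval of the fold, from the same reads that chose the members, lay above 2 against both siblings in 50 of the 74. Such intervals above 2 were found in 53 of the 11637, which is 0.455%, so 3 coding sequences met this without the pseudocount and did not meet the rule.

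Members and non-members were not separated by a gap at the threshold. The members just inside had 549, 642, 1215 and 594 bases, and the smaller of their log2 steps to the siblings was 1.00, 1.01, 1.02 and 1.02. Of these, the 1215-base member had 344 RPKM in chinchilla against 730.1 in black and 697 in white skin. The coding sequences just outside had 1539, 2100, 216 and 747 bases with steps of 0.9999, 0.998, 0.989 and 0.984. The 1539-base one was abundant, with 649 RPKM in chinchilla against 1405 in black and 1299 in white skin, and came closest to meeting the rule. Within 0.1 of the threshold lay 20 members and 34 non-members. A non-member of 4149 bases, the one with most reads in black and in white skin, had 3465 RPKM in chinchilla against 7865 in black and 6699.5 in white skin and a step of 0.95.

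The rule sets no limit on the difference between black and white skin, although both enter it through their difference to chinchilla. Black exceeded white in 52 of the 74 members (70.3%) and white exceeded black in 22, while black exceeded white in 51.1% of the 11637. The median log2 difference of white minus black was -0.20 over the members and -0.01 over the 11637. The members' order depended on abundance. With a mean of at least 100 RPKM, black was higher in 31 of 36 members (86.1%), against 28.5% of the 1353 coding sequences of that abundance. Below 100 RPKM it was 21 of 38 members (55.3%), against 54.0%. Abundant coding sequences were in general lower in black than in both other libraries. The rule asks for black and for white well above chinchilla, and whether it sets this order was not tested.

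**Figure D4:**
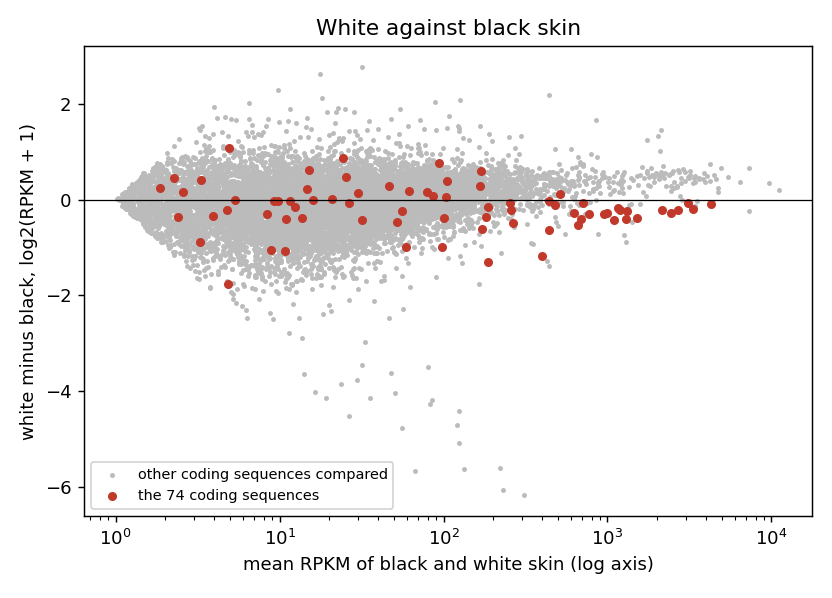
White minus black as a difference of log2(RPKM + 1) against the mean RPKM of both (log axis), for all compared coding sequences (grey) and the 74 members (red). At the abundant end the grey points lie mostly above 0 and the red points mostly below it, while the red points of lower abundance lie on both sides.

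The same order by counting interval is given as a description only. Black and white both enter the rule with these reads, so no excess is read from the members' counts. The interval of black over white lay above 1 in 39 of the 74 members, against 4083 of the 11637 (35.1%). It lay below 1 in 11 members, against 3621 of the 11637 (31.1%), and held 1 in 24, against 3933. A 2-fold difference was reached in 5 members that were lower in white and in 1 that was higher, against 4.48% and 1.43% of the 11637. The 1506-base member had 7 reads in the chinchilla library (0.310 RPKM), 197 in the black (8.05 RPKM) and 37 in the white one (1.66 RPKM), the widest gap between black and white among the members. The 3477-base member, the longest, had 52.4 RPKM in chinchilla against 265 in black and 107 in white skin. In the same order, the 561-base member had 95.7, 553 and 243 RPKM, and the 1800-base member had 2.63, 14.9 and 6.63 RPKM. In these members the 3 libraries formed a staircase, with white between black and chinchilla and apart from both.

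White was the highest library in the members at the other end. The 1104-base member had 7 reads in the chinchilla library (0.423 RPKM), 50 in the black (2.79 RPKM) and 115 in the white one (7.03 RPKM), and its reads covered 32.4% of its length in black skin, 51.9% in white skin and 45.3% in chinchilla. The 300-base member had 28.2 RPKM in chinchilla against 69.6 in black and 119 in white skin. The 237-base member had 4.22, 11.7 and 18.5 RPKM in that order. ENSOCUP00000011468, described above, also belongs here, with black over white at 0.532 (0.421 to 0.669). For these, chinchilla skin was closer to black than to white skin.

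Of the remaining extremes of length, the 225-base member had 13 reads in the chinchilla library (3.85 RPKM), 46 in the black (12.6 RPKM) and 31 in the white one (9.29 RPKM). Listed again as chinchilla, black and white, the 3474-base member had 5.30, 15.6 and 11.8 RPKM, the 2553-base member 1.91, 12.3 and 5.47 RPKM, and the 2253-base member 16.2, 78.8 and 39.5 RPKM. In these long members, too, black was highest and chinchilla lowest. The 3 members of 396 bases had the same fold of black over chinchilla, 2.86, at different levels. Their RPKM in chinchilla, black and white skin were 71.6, 205 and 159.6 for the first, 46.8, 134 and 204 for the second, and 40.1, 115 and 87.9 for the third. The second had white above black, and the others had white below it.

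The covered share, which is the percentage of the coding length touched by at least 1 read, gives the extent of a sequence that was seen in each skin. In 49 of the 74 members every library had at least 100 reads. Their median covered share was 99.8% in black skin, 99.7% in white skin and 99.7% in chinchilla, with a median difference of 0 percentage points for chinchilla against either sibling. Covered shares in chinchilla and white lay within 1 point of each other in 37 of these 49 (75.5%), against 73.2% of the 9308 compared coding sequences with as many reads. In 31 of the 49 (63.3%) at least 99% was covered in each of the 3 libraries, against 35.9% of the 9308, whose median read numbers per base were lower, at 0.434 to 0.495. With median read numbers of 1.65 to 5.04 per base, the covered share of these members was near its upper limit in each library and could hardly fall with the read number.

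Some members were covered incompletely to a similar degree in all 3 skins. Of the 49, 8 (16.3%) stayed under 95% in each library, close to the 17.8% of the 9308. The 1395-base member was covered to 73.8% in black skin, 74.0% in white skin and 73.8% in chinchilla, and the 1338-base member to 67.9%, 67.9% and 66.8%. The 840-base member was the exception, with 67.6%, 81.4% and 56.6% covered by 789, 816 and 313 reads in the same order. ENSOCUP00000017707 had a like gap in both siblings, with 63.5% covered in black and 63.6% in white skin in spite of the number of reads, while its 11 reads in chinchilla skin covered 35.7%. The 1779-base member without reads in chinchilla skin was covered to 41.3% in black and 41.5% in white.

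**Figure D5:**
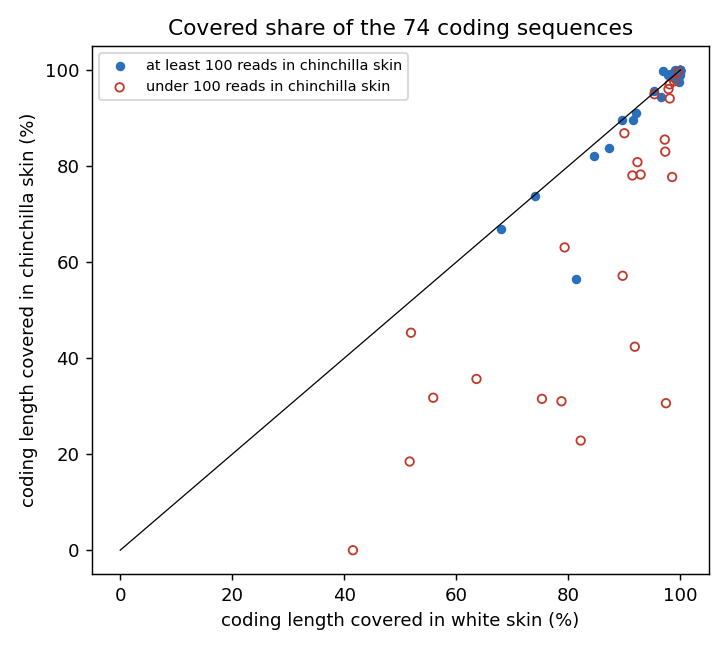
Percentage of the coding length covered by reads in white skin (horizontal axis) and chinchilla skin (vertical axis) for the 74 members, with a line of equal coverage. Filled points have at least 100 reads in chinchilla skin and lie on or near the line with 1 exception, while open points have fewer reads and reach far below it.

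The coding sequences that were 2-fold higher in chinchilla than in both siblings numbered 101. Their median was 9.08 RPKM in chinchilla skin, against 29.6 for the 74. In black and white skin, where the rules place the 74 high and the 101 low, their medians were 2.86 and 2.50 RPKM, and 1 of them reached 100 RPKM in both skins against 34 of the 74. Their median coding length, 894 bases, was close to that of the 74. The 103 coding sequences lower in black than in both others were shorter still, with a median of 684 bases, and 6 had at least 100 RPKM in black and white. These groups share libraries with the 74, and no test across animals is possible.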

How the data were processed

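RNA-seq of back skin was analysed, with 1 library per coat colour and 3 in all. Per the labels' protocols, mRNA was enriched on oligo(dT) beads from TRIzol-extracted RNA, fragmented and made into Illumina libraries. The sources used here do not name the aligner, counting program, build or annotation, or say whether strand was kept. The authors deposited, per the file headers, 1 list per library that holds for each Ensembl protein identifier a count of unique reads, a length, the percent of that length covered, and an RPKM value. The lengths divide by 3 throughout and are taken as coding lengths. The deposited RPKM were recomputed from the counts to within 1.6e-14, relative to the total of assigned reads. Missing identifiers were taken as 0. Because reads were unique, sequences with a near-identical copy can be undercounted.

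With 1 animal per colour there is no test and no p-value. Differences are of log2(RPKM + 1), which understates folds of low sequences. Folds are ratios of RPKM with exact Clopper-Pearson 95% intervals through the conditional binomial share of reads, for counting error only. The length curve was a lowess fit (fraction 0.3) of each difference on log2 length, over those averaging 5 RPKM or more. The steps were tested on simulated counts with counting error only and a planted 4-fold fall. Falls near the 2-fold threshold of the rule were not simulated. Members, lists and alternatives were chosen with earlier results of these data known. By the naming rule, the 2 largest steps are printed by identifier, and by length the 8 most abundant, the 8 largest steps, the 4 shortest and longest, the 4 on each side of the threshold, and the 4 highest and lowest in white minus black. Other members are named where a passage turns on them. Lists of marker genes prepared for the case that names could be matched were not evaluated. The tools were pandas 2.3.3, statsmodels 0.14.6 and SciPy 1.17.1, with NumPy 2.4.6 and matplotlib 3.10.9, under Python 3.11.15.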

Additional observations from a re-analysis of the deposited data

How the results depend on the processing

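The number of 74 depended on the pseudocount and threshold. A pseudocount of 0.1 gave 136, all 74 included, and 5 gave 43, all of them among the 74, since a larger pseudocount shrinks differences at low RPKM. A 4-fold threshold on the log2(RPKM + 1) scale left 2. By plain RPKM ratio more members were 4-fold lower, such as the 1506-base one at 26.0 for black and 5.35 for white over chinchilla. The other alternatives gave 64 to 91: a floor of 5 RPKM, 10 reads in both siblings, 3 other scalings and removal of the length curve. Scaling to reads without the 50 most abundant lost 5 of the 74, and median ratio and upper quartile scaling lost none. With a pseudocount of 0.1 the median log2 difference of chinchilla minus black was -1.59 over the 136 and -1.52 over the 74, against -1.41. The median coding length, 811.5 bases for the 74, was taken anew over the coding sequences that each setting called. It was 1064 with a pseudocount of 0.1, 624 with 5, 771 with the floor of 5 RPKM and 861 with median ratio scaling. With upper quartile scaling it was 942, with scaling to reads without the 50 most abundant 882, and without the length curve 783. The members' share in black, white and chinchilla was 4.86%, 3.70% and 1.55% of summed RPKM, and 2.98%, 2.49% and 1.01% of reads without the 50 most abundant, the 3 members among those left out. Members with intervals beyond 2-fold against both siblings numbered 43 to 58 under other scalings and 37 at 99%, against 50. ENSOCUP00000017707 went from -5.84 to -7.01 (pseudocount 0.1) and -4.10 (pseudocount 5) against black, and from -6.23 to -7.40 and -4.47 against white. Depth limits the 9 members with under 10 reads in chinchilla skin. No library could be left out, and no paired analysis was possible because each colour has 1 library.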
